A study of Mus musculus with 105 samples.

Results

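The 8 genes described here were taken by symbol from a table of raw counts: Dppa2, Dppa4, Dppa3, Dppa5a, Zfp42, Pou5f1, Rhox5 and Tdgf1. All 8 symbols were found among the 53379 gene rows of the table, each in 1 row. They are genes of the early embryo, of pluripotent stem cells, or of placenta and germline. The poly(A) RNA libraries came from mouse material of strain C57BL/6 and number 105. The tumour lines were B16 and B16OVA (melanoma), MCA101OVA (fibrosarcoma) and MC38 (labelled colon adenocarcinoma). Each was sequenced untreated (WT), as a control line (Ctrl) and with a knockout of Setdb1 (KO), with 3 libraries per group and 6 for B16OVA. The tumour lines were grown in RPMI medium with serum and puromycin. The sources used here do not say how the knockout was made, what the Ctrl cells carry or whether a group is a clone or a pool. Another 7 WT tumour libraries came from a run coded B176, each the only one of its kind. Melanocytes cultured from newborn C57BL6/J mice gave 5 libraries. The 12 healthy tissues, each with 4 libraries, came from WT female mice whose age is not given. The labels do not say which replicates are separate cultures or animals; where they are not, each p-value reflects just the spread among libraries, which may be technical.

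In the mouse embryo these genes mark stages that most adult cells have left. Pou5f1 (Oct4) encodes the POU homeodomain factor at the centre of the pluripotency network, and Zfp42 (Rex1) encodes a zinc finger protein widely used to mark naive embryonic stem cells. Dppa2 and Dppa4 encode SAP domain proteins that bind chromatin together, keep some developmental promoters free of DNA methylation and help to start transcription of the embryonic genome. Dppa3 (Stella, PGC7) is a maternal factor of oocytes and germ cells that protects the maternal genome from loss of methylation. Dppa5a (Esg1) encodes a KH domain RNA-binding protein of stem cells, Rhox5 (Pem) an X-linked homeobox protein of placenta and reproductive tissue, and Tdgf1 (Cripto) the membrane-bound co-receptor for Nodal. Setdb1, the gene that the KO labels name, encodes an enzyme that methylates histone H3 at lysine 9 and keeps repeats and a group of germline genes silent.

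Levels are counts per 1e6 library counts (CPM). Library totals, in units of 1e6 counts, ran from 17.2 to 50.4 in the 45 libraries of the WT, Ctrl and KO groups, from 36.2 to 58.2 in run B176, from 19.9 to 30.6 in melanocytes and from 53.6 to 254 in tissues. Setdb1 was read first as a check of the labels. B16 KO libraries held 11.7 to 20.6 CPM (Ctrl 59.5 to 65.1) and those of B16OVA 15.6 to 49.9 (Ctrl 21.1 to 99.4). MCA101OVA KO held 20.4 to 36.7 (Ctrl 45.7 to 95.7) and MC38 KO 60.1 to 85.3 (Ctrl 54.9 to 124.9). The log2 folds were -1.85, -1.18 and -1.40 in B16, B16OVA and MCA101OVA, all called lower (edgeR, adjusted p = 9.80e-05, 2.17e-04 and 0.00749). In MC38 the log2 fold was -0.52 (edgeR, adjusted p = 1). The KO and Ctrl ranges overlap in B16OVA and in MC38, so the level of Setdb1 does not separate every library labelled KO from Ctrl in these lines, and in MC38 it does not bear out the label. An RNA level does not measure loss of the protein, which was not read here. Of the cultured libraries, 7 had log CPM that fell with transcript length (slope under -0.15): B16 KO replicate 2, B16OVA WT replicates 2 and 5, B16OVA Ctrl replicate 2, MCA101OVA Ctrl replicates 1 and 2 and MC38 Ctrl replicate 1. B16, B16OVA and melanocytes held melanocyte lineage transcripts (Tyrp1 at 11800, 10360 and 13670 CPM by mean in B16 WT, B16OVA WT and melanocytes). The labelled origin of MC38 was not seen in its intestinal markers: Cdh1 had 0 counts and Epcam 1 count over the 3 MC38 WT libraries, while Krt8 was at 404 CPM. Of 7 intestinal markers, Krt8 was the only one with a mean of at least 1 CPM there. In MCA101OVA WT, 3 of 7 fibroblast markers reached that level, Col3a1 (291 CPM), Pdgfrb (27.3) and Pdgfra (7.80), while Thy1 (0 counts), Dcn (0.0419 CPM), Col1a1 (0.277) and Col1a2 (0.0465) were at or near 0.

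The gene positions are those of GENCODE on mm10, the build of the counts. Dppa4 lies on chromosome 16 at 48283733 to 48294237 and Dppa2 at 48303908 to 48319723, both on the plus strand and 9671 bases apart. Rhox5 lies on chromosome X at 37804842 to 37808876 (plus), Pou5f1 on 17 at 35506018 to 35510772 (plus), Dppa3 on 6 at 122626410 to 122630272 (plus), Zfp42 on 8 at 43295063 to 43306980 (minus), Dppa5a on 9 at 78367052 to 78368177 (minus) and Tdgf1 on 9 at 110939603 to 110946158 (minus). All 8 are protein coding, and a count stands for reads over their exons, UTRs included. Rhox5 shared 0 of its 50-base words with transcripts of another gene. The other members shared from 8.52% (Zfp42, with the pseudogene Zfp42-ps1) to 38.6% (Dppa5a, with 9 genes, Dppa5b and Dppa5c among them). Dppa2 shared 29.1% and Dppa4 31.3%, mostly with predicted genes. How the counting treated reads with several matches is not given in the sources used here, so their values are uncertain to that extent. Pou5f1 shares exon bases with Gm19553 on the other strand, and since the strand setting of the counting is not given, reads of that pair cannot be told apart.

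Untreated tumour lines transcribed 3 of the 8 members, Dppa2, Dppa4 and Rhox5, and differed widely in how much. MCA101OVA was highest for all 3 among the 4 WT groups. Its WT libraries held 6.83, 14.03 and 14.97 CPM of Dppa2, 2.07, 3.995 and 3.27 CPM of Dppa4, and 112, 98.5 and 169 CPM of Rhox5. MC38 WT libraries held 1.27, 1.23 and 0.847 CPM of Dppa2, 0.177, 0.251 and 0.0584 CPM of Dppa4, and 4.84, 3.24 and 2.77 CPM of Rhox5. In the melanoma lines Dppa2 was nearly unseen, with 0 counts over 3 B16 WT libraries (3 counts there would be 0.0272 CPM) and 2 counts over 6 B16OVA WT libraries. Dppa4 had 2 and 7 counts in these groups. Rhox5 was present in every WT library of both, at 0.541, 0.248 and 0.655 CPM in B16 and at 2.91 to 4.67 CPM in B16OVA (median 3.34). Scaled by exon length to compare genes, the MCA101OVA WT levels were 167 ± 49.4 RPKM for Rhox5, 4.88 ± 1.82 for Dppa2 and 1.87 ± 0.585 for Dppa4 (SD, n = 3). The order Rhox5, Dppa2, Dppa4 by RPKM also held in MC38 WT, at 4.80 ± 1.44, 0.455 ± 0.0951 and 0.0977 ± 0.0586 (SD, n = 3).

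Tests between untreated lines were made among libraries that share runs. In the MCA101OVA against B16OVA comparison (3 libraries each), all 3 members were called higher in MCA101OVA, where 16.8% of 14699 tested genes were called higher. Rhox5 was higher by 5.41 on the log2 scale (SE 0.43; edgeR, adjusted p = 1.29e-05) and Dppa4 by 5.35 (SE 0.64; edgeR, adjusted p = 1.60e-04). Dppa2 passed too (edgeR, adjusted p = 2.27e-04), but rests on 0 counts in the 3 B16OVA WT libraries of that fit, so its fitted fold is no bound. Dppa2 and Dppa4 passed the filter on low counts there only through MCA101OVA WT, where they were high. The filter thus favoured both calls, and the count of members called is no support. B16OVA and MC38 differed in Dppa2 and not detectably in Rhox5. Dppa2 was lower in B16OVA, with a log2 fold of -5.28 (SE 1.08; edgeR, adjusted p = 0.00293; 12.8% of 16020 tested genes were called lower), and Rhox5 had a log2 fold of 0.33 (SE 0.78; edgeR, adjusted p = 0.793). Dppa2 passed the filter on low counts in this fit only through MC38 WT, where it was high. Rhox5 was 3.37, 4.67 and 3.89 CPM in the 3 B16OVA WT libraries of that run, which overlaps the MC38 values given above. B16OVA WT against B16 WT gave 0 of 3 tested members called by edgeR and 1 at an unadjusted p under 0.05. That member is Rhox5, with a log2 fold of 2.70 (SE 0.40; edgeR, adjusted p = 0.278), and in that comparison edgeR called 0.00680% of genes. For Rhox5 the lowest of all 6 B16OVA WT libraries (2.91 CPM) was above the highest B16 WT library (0.655 CPM). The share of all genes so separated was not counted.

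Cultured melanocytes, the normal counterpart of the melanoma lines, held almost none of the 3. Rhox5 had 3 and 1 counts in 2 of the 5 melanocyte libraries and 0 in the others, and replicate 3 alone held 2 counts each of Dppa2 and Dppa4. Rhox5 was called higher in B16OVA WT than in melanocytes by 6.86 on the log2 scale (SE 0.89; edgeR, adjusted p = 1.97e-04; 38.7% of tested genes were called in either direction) and Dppa2 was not (log2 fold 0.46, SE 1.29; edgeR, adjusted p = 0.81). Against the same melanocytes MC38 WT was higher for both members tested, Dppa2 by 5.73 (SE 0.93) and Rhox5 by 6.53 (SE 0.88; edgeR, adjusted p = 4.26e-04 and 1.27e-04; 18.7% were called higher). These comparisons share their melanocyte libraries. In their fit Dppa2 passed the filter on low counts only through MC38 WT, where it was high, so the filter favoured its call there. Rhox5 passed that filter only through B16OVA WT and MC38 WT, where it was high, so its calls were favoured too. The melanocyte cultures also held fibroblast transcripts, Col1a1 at 75.9 to 5879 CPM (mean 1486), whose part in the comparison was not tested. Summed over libraries, Rhox5 was 111 times higher in B16OVA WT than in melanocytes (exact 95% interval 43.1 to 409) and 115 times higher in MC38 WT (44.6 to 425). All such intervals cover counting error only.

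**Figure D1:**
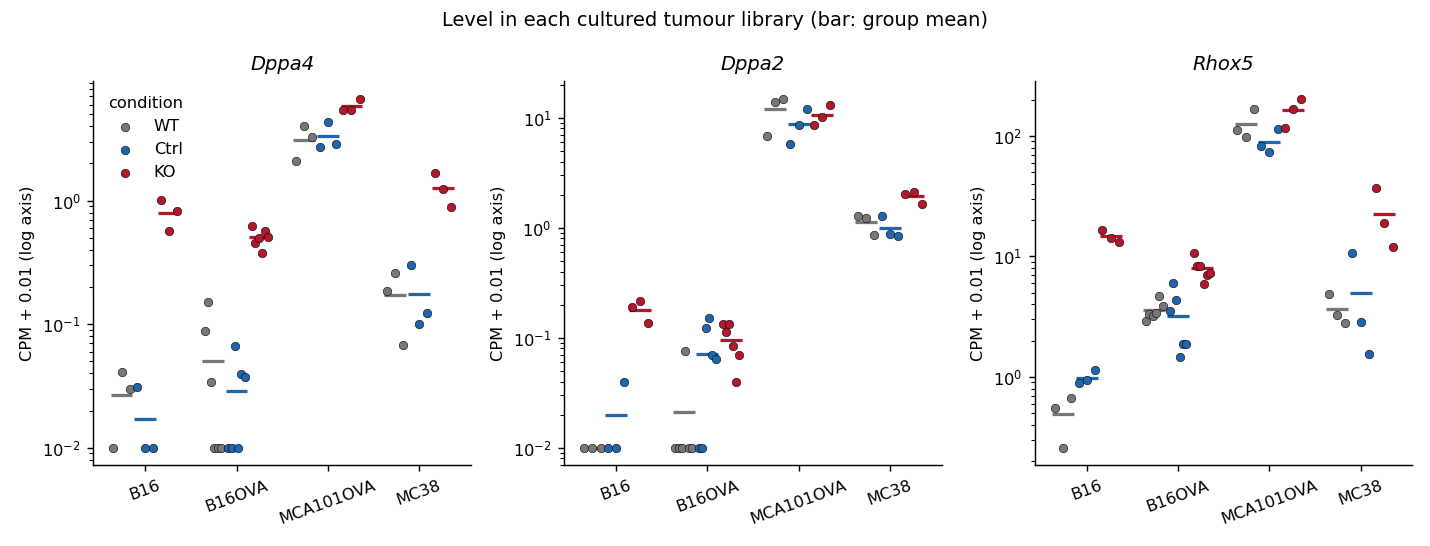
Level of Dppa4, Dppa2 and Rhox5 in each of the 45 cultured tumour libraries, as CPM plus 0.01 on log axes, by line on the x axis and condition by colour; bars are group means. Dppa4 KO libraries sit above every Ctrl and WT library of their line in all 4 lines, and MCA101OVA is high for all 3 genes in every condition.

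Dppa4 rose in the KO of 3 of the 4 lines. In B16, the KO libraries held 1.01, 0.554 and 0.810 CPM, while the 3 Ctrl libraries held 1 count in all (0.0213 CPM in replicate 1) and the 3 WT libraries 2 counts. The groups did not overlap. The log2 fold was 6.02 (SE 0.84; edgeR, adjusted p = 1.19e-05). In B16, 3 of 3 tested members were called higher in KO, against 0.660% of all 16809 genes tested. Since 1 Ctrl count sets the base, the ratio of summed counts, 93.5, has an exact 95% interval of 16.4 to 3728.

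In B16OVA, Dppa4 ran from 0.368 to 0.616 CPM over 6 KO libraries (median 0.496), against 0 to 0.0569 over 6 Ctrl libraries (median 0.0136) and 0 to 0.142 over 6 WT libraries. Every KO library was above every Ctrl and WT library. The log2 fold was 4.32 (SE 0.60; edgeR, adjusted p = 6.41e-06), and Dppa4 was the 1 member of 3 tested that was called, with 0.994% of genes called higher. Summed counts were 95 against 3, a ratio of 26.8 (exact 95% interval 8.89 to 132). Within runs B253 and B262 the KO mean was 0.517 CPM against 0.0190 in Ctrl, and within run D176 it was 0.478 against 0.0190 (3 libraries each), with no overlap in either.

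MC38 KO libraries held 1.68, 1.23 and 0.873 CPM of Dppa4, against 0.290, 0.0904 and 0.113 in Ctrl and 0.177, 0.251 and 0.0584 in WT. The groups did not overlap, and the ratio of summed counts was 8.35 (exact 95% interval 4.62 to 16.4). The log2 fold was 2.87 (SE 0.62; edgeR, adjusted p = 0.0140; 1 of 3 tested members called, with 0.464% of genes called higher). This call was lost without Ctrl replicate 2, Ctrl replicate 3 or KO replicate 1 (edgeR, adjusted p = 0.208, 0.186 and 0.184) and with the 2 MC38 groups alone in the fit (edgeR, adjusted p = 0.30). In B16 the fit of the 2 groups alone also ended the Dppa4 call (edgeR, adjusted p = 0.0582).

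In MCA101OVA, where Dppa4 was already high, no difference was called. KO libraries held 5.41, 5.38 and 6.70 CPM, Ctrl 2.72, 4.34 and 2.86 and WT 2.07, 3.995 and 3.27. Each KO library was above each Ctrl and WT library, yet the log2 fold of 0.63 (SE 0.51) was not called (edgeR, adjusted p = 0.887). Of the 3 members tested in MCA101OVA edgeR called 0, with 0 at an unadjusted p under 0.05 and 0 called by DESeq2, against 0.339% of genes called higher by edgeR. The KO effect on Dppa4 in MCA101OVA differed from that in B16OVA by -3.69 on the log2 scale (SE 0.81), which missed the threshold (edgeR, adjusted p = 0.0537) and passed it with RLE scaling, without the filter, with a stricter filter, with the replicate block, by DESeq2 and without MCA101OVA Ctrl replicate 3.

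Dppa2, the neighbour and partner of Dppa4, was called in B16 alone. B16 KO libraries held 9, 7 and 5 counts (0.182, 0.204 and 0.127 CPM), against 0, 0 and 1 in Ctrl and 0 in all 3 WT libraries. The log2 fold was 3.83 (SE 0.86; edgeR, adjusted p = 0.0141). With so few counts the ratio, 19.4, has an exact 95% interval of 3.13 to 803.7, and the call was lost with DESeq2 (adjusted p = 0.0873) and without Ctrl replicate 1, Ctrl replicate 2 or KO replicate 1 (edgeR, adjusted p = 0.168, 0.195 and 0.102). In B16OVA, KO libraries held 0.0296 to 0.123 CPM (median 0.0882) and Ctrl 0 to 0.143 (median 0.0571). The KO mean was 3.06 times the Ctrl mean within runs B253 and B262 and 0.632 times within run D176, with overlap in both. Over all runs the groups overlap, and the log2 fold of 0.34 (SE 0.56) was not called (edgeR, adjusted p = 1). MC38 KO libraries held 2.03, 2.09 and 1.63 CPM, above Ctrl (1.28, 0.874 and 0.827) and WT without overlap, but the log2 fold of 0.86 (SE 0.49) was not called (edgeR, adjusted p = 1). In MCA101OVA, 8.62, 10.1 and 12.98 CPM in KO overlapped 5.79, 8.68 and 12.1 in Ctrl, with a log2 fold of 0.16 (SE 0.45; edgeR, adjusted p = 0.988) that turned to -0.08 against WT. The KO effect on Dppa2 in B16 exceeded that in B16OVA by 3.50 on the log2 scale (SE 1.06), which edgeR did not call (adjusted p = 1). In B16 KO the Dppa4 level per exon length was 0.476 ± 0.138 RPKM and that of Dppa2 0.0698 ± 0.0163 (SD, n = 3). Untreated B16 held 2 counts of Dppa4 and 0 of Dppa2. In MCA101OVA and MC38 mean Dppa2 was above mean Dppa4 in WT and also in KO (4.31 against 3.51 and 0.783 against 0.758 RPKM in KO).

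Rhox5, the homeobox gene, was called in B16 alone, though its KO libraries were above Ctrl in other lines too. In B16, KO libraries held 16.6, 14.2 and 13.1 CPM against 0.874, 0.930 and 1.12 in Ctrl and 0.541, 0.248 and 0.655 in WT. The log2 fold was 3.96 (SE 0.57; edgeR, adjusted p = 2.04e-05), and it was called with any library left out and under all 10 other settings (edgeR or DESeq2, highest adjusted p = 0.0213). The ratio of summed counts was 15.3 (exact 95% interval 12.7 to 18.8). B16OVA KO libraries held 5.93 to 10.7 CPM (median 7.78), Ctrl 1.46 to 6.04 (median 2.71) and WT 2.91 to 4.67. KO and Ctrl overlapped by 1 Ctrl library, replicate 2 at 6.04 CPM, and the log2 fold of 1.20 (SE 0.37) was not called (edgeR, adjusted p = 0.151). It was called without that library (log2 fold 1.57; edgeR, adjusted p = 0.0135), which is 1 of the 7 with the length trend. The part of the length trend in the Rhox5 value of that library was not tested. Inside runs the groups were apart: 8.26 to 10.7 CPM in KO against 3.53 to 6.04 in Ctrl for runs B253 and B262, and 5.93 to 7.30 against 1.46 to 1.88 for run D176.

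In MC38 the Rhox5 KO libraries held 36.9, 19.07 and 12.04 CPM, Ctrl 10.6, 2.83 and 1.54 and WT 4.84, 3.24 and 2.77. The groups did not overlap, and the log2 fold of 2.07 (SE 0.52) missed the threshold (edgeR, adjusted p = 0.0578). Ctrl replicate 1 (10.6 CPM) is a library with the length trend, whose part in this value was not tested. Without Ctrl replicate 1 the log2 fold of Rhox5 was 3.36 (edgeR, adjusted p = 6.18e-04). With all libraries it was called with the replicate block (edgeR, adjusted p = 0.0412) and by DESeq2 (adjusted p = 0.0117), while over the fits that left out 1 library the edgeR adjusted p ran from 6.18e-04 to 0.998, the highest without KO replicate 1 (log2 fold 1.498). In MCA101OVA, KO libraries held 117, 168 and 204 CPM, Ctrl 82.3, 73.8 and 113 and WT 112, 98.5 and 169, with a log2 fold of 0.73 (SE 0.49; edgeR, adjusted p = 0.878). Every KO library was above every Ctrl library there, while KO and WT overlapped. Ctrl replicates 1 and 2 of MCA101OVA have the length trend too, and held less Rhox5 than replicate 3. The effect in B16 was above that in B16OVA by 2.75 on the log2 scale (SE 0.64), which edgeR did not call (adjusted p = 0.997).

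**Figure D2:**
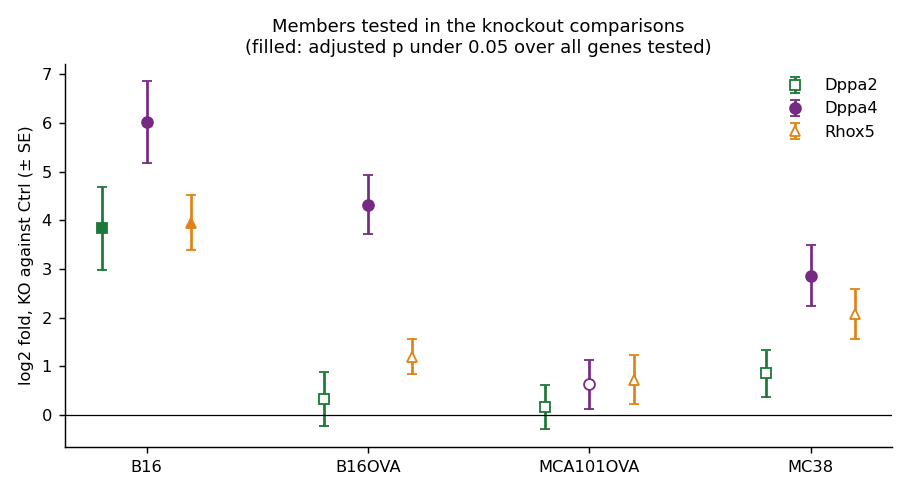
Fitted log2 fold of KO against Ctrl for the 3 members tested, by line, with SE bars; filled symbols passed an adjusted p under 0.05 over all 16809 genes. Dppa4 is filled in B16, B16OVA and MC38, Dppa2 and Rhox5 in B16 only.

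The share of all tested genes whose KO libraries lay wholly above the Ctrl libraries gives the background for these separations. It was 3.30% for B16 (3 of the 3 tested members so separated), 1.18% for B16OVA (1 of 3), 2.36% for MCA101OVA (2 of 3) and 3.48% for MC38 (3 of 3). No such share was counted for separations of KO from WT, of Ctrl from WT or between lines. The members were chosen with earlier results of these data known, so neither these counts nor the counts of members called are support. All 3 tested members passed the filter on low values, and all 3 were also present in every WT and Ctrl library of MCA101OVA. Ctrl against WT gave no call for the members. Of the 3 tested members, edgeR called 0 in each line (0% of all genes were called in each), 1 was under an unadjusted threshold of 0.05 (Dppa2 in B16OVA) and DESeq2 called 0 in each. In B16 the Rhox5 Ctrl libraries (lowest 0.874 CPM) were above the WT libraries (highest 0.655 CPM), with a log2 fold of 0.99 (SE 0.56; edgeR, adjusted p = 1). For differences of the KO effect against B16OVA, edgeR called 0 members for B16, MCA101OVA and MC38, where 2, 1 and 0 passed 0.05 before adjustment. DESeq2 called 0, 1 and 0. Over all genes edgeR called 0%, 0.101% and 0.262%.

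The promoter of Rhox5 given by RefSeq (GRCm38.p6, chrX:37754358-37754657, plus strand, 250 bases before to 50 after the start) is shown because Rhox5 carries the widest range of the members, from 0 counts in skin to 204 CPM. CG pairs, the sites of DNA methylation, are in capitals.
Rhox5: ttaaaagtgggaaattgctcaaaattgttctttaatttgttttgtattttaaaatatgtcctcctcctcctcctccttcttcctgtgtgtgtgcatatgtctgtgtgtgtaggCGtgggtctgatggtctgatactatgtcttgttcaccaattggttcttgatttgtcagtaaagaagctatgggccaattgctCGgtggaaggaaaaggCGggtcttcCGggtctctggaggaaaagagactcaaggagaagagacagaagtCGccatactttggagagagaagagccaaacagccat
It holds 5 CG pairs, and 62% of all 32851 RefSeq windows of 300 bases hold at least as many (median 7). The window ends 50185 bases before the GENCODE start at 37804842, so it does not adjoin the gene as GENCODE gives it. It is the window of 1 annotated start, and the counts do not tell which start was used.

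The other 5 members were at or next to 0 in the tumour libraries, those labelled KO included. Over all 52 tumour libraries Zfp42 and Tdgf1 had 0 counts each (3 counts over these libraries would be 0.00174 CPM), Pou5f1 had 1 count, in a B16OVA KO library, Dppa3 had 3 counts in 3 libraries and Dppa5a 13 counts in 10 libraries. No library held more than 3 counts of any of them. In KO libraries alone Dppa3 had 1 count in B16 and 1 in MCA101OVA, and Dppa5a had 1 in B16OVA, 2 in MCA101OVA and 1 in MC38, and none of these 5 genes passed the filter on low counts, so none was tested. Melanocytes held 0 counts of Zfp42, Pou5f1, Dppa5a and Tdgf1 and 11 of Dppa3, 10 of them in replicate 5 (0.413 CPM). A rise of these 5 genes in the KO was thus not detectable at this depth.

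RefSeq promoter windows were found for 3 of these 5 genes and are printed to set genes at or next to 0 in the tumour libraries beside Rhox5; CG pairs are in capitals. They are Pou5f1 (chr17:35505782-35506081, plus strand, the upstream of its 2 windows), Zfp42 (chr8:43306960-43307259, minus strand) and Tdgf1 (chr9:110946109-110946408, minus strand), all from GRCm38.p6 and read 5′ to 3′.
Pou5f1: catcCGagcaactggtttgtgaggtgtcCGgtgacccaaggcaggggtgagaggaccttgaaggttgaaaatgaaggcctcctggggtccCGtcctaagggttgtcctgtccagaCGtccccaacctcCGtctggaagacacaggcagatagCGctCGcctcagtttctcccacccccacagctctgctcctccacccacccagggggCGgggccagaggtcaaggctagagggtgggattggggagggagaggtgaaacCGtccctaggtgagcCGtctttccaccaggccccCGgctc
Zfp42: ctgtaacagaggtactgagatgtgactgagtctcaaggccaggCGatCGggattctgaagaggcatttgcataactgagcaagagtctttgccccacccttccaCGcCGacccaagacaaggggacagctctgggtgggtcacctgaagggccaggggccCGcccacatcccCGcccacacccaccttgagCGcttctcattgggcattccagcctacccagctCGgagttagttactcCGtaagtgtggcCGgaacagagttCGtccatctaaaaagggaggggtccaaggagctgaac
Tdgf1: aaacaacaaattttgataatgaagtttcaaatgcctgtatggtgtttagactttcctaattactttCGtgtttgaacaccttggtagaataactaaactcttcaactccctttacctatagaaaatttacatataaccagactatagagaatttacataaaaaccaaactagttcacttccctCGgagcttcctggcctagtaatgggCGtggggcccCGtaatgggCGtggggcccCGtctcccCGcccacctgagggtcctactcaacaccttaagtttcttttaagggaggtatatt
The Pou5f1 and Zfp42 windows hold 11 CG pairs each, and 41.4% of all windows hold at least as many; that of Tdgf1 holds 7 (52.1% hold at least as many). The octamer ATTTGCAT, the word bound by POU factors, was searched on both strands: it is in the Zfp42 window, from base 65, and in none of the other member windows, and 1.74% of all windows hold it. A match is a description of letters and says nothing about binding here.

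Genes of the same pathways were read in the same fit, as lists. These stand beside the median log2 fold of all tested genes, which was between -0.0128 and 0.0106 over the 4 lines. Of the 30 genes of the pluripotency network (Nanog, Sox2, Esrrb and others), 13 were tested, with medians of -0.08 to 0.11, and edgeR called 0 in each line; 0, 2, 1 and 0 had an unadjusted p under 0.05 in these lines in the order B16, B16OVA, MCA101OVA, MC38, and DESeq2 called 0. The 2-cell stage genes (4 of 25 tested), oocyte markers (5 of 20), trophoblast genes (8 of 17), Nodal and Cripto signalling (8 of 16) and family relatives (5 of 13) also had 0 edgeR calls in each line; at an unadjusted p under 0.05 there was at most 1 gene per list and line, and DESeq2 called 0. None of the 41 other Rhox genes in the table passed the filter, so Rhox5 was the only gene of its cluster tested. Of 16 genes known for germline expression under CpG promoters, 6 were tested. Of these edgeR called 2 higher in each melanoma line, 3 in the fibrosarcoma line and 1 in MC38, and 0 lower, with medians of 0.42 to 2.71. Over all genes the share called higher was 0.660, 0.994, 0.339 and 0.464% in B16, B16OVA, MCA101OVA and MC38. In the same order 2, 3, 3 and 3 of the 6 had an unadjusted p below 0.05, and the DESeq2 counts were 2, 2, 2 and 1. Tdrd9, a helicase of the piRNA pathway, rose in all 4 lines, from a Ctrl mean of 0.207 to a KO mean of 8.54 CPM in B16, from 0.203 to 4.26 for B16OVA, from 0.0280 to 4.08 for MCA101OVA and from 0.0828 to 1.76 for MC38 (edgeR, adjusted p = 2.99e-06, 1.22e-07, 5.85e-06 and 0.00103). Tex19.1, a germ cell and placenta factor, was called in B16, B16OVA and MCA101OVA (edgeR, adjusted p = 7.00e-04, 1.96e-05 and 1.37e-05) and Rnf17, a Tudor domain protein of germ cells, in MCA101OVA (edgeR, adjusted p = 0.0103). In MCA101OVA, 3 genes of this list and 0 of the 3 tested members were called. Members and lists were chosen with earlier results of these data known, so these counts are no support. Of 19 silencing factors, all tested, edgeR called Setdb1 lower in 3 lines and Atf7ip, the partner of Setdb1, higher in B16OVA by 1.44 (SE 0.26; edgeR, adjusted p = 6.35e-04).

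Around the members, 37 named genes lie within 100 kb, with predicted models (Gm numbers and names ending in Rik) left out, and 14 were tested. Of these edgeR called 0 in B16, B16OVA and MC38 and 1 in MCA101OVA; 0, 3, 1 and 0 had an unadjusted p under 0.05 in these lines in the order B16, B16OVA, MCA101OVA, MC38, and DESeq2 called 0, 0, 1 and 0. The called neighbour was Gsta2, a glutathione transferase gene that lies 11264 bases from Dppa5a. It had 0 counts over the 3 Ctrl libraries of MCA101OVA and a mean of 0.571 CPM in KO, at least 11-fold higher with Ctrl set at 3 counts over the group (edgeR, adjusted p = 0.00204). In B16 the same gene was at 20.5 CPM in Ctrl and 18.2 in KO. It belongs to a family of close copies, so its reads are uncertain. Dppa5a itself had 1 and 2 counts in MCA101OVA Ctrl and KO. Among these named genes, none near Dppa2 or Rhox5 passed the filter. Dppa4 and Zfp42 had no such gene within 100 kb, apart from Dppa2 beside Dppa4. Predicted genes near the members were not read.

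**Figure D3:**
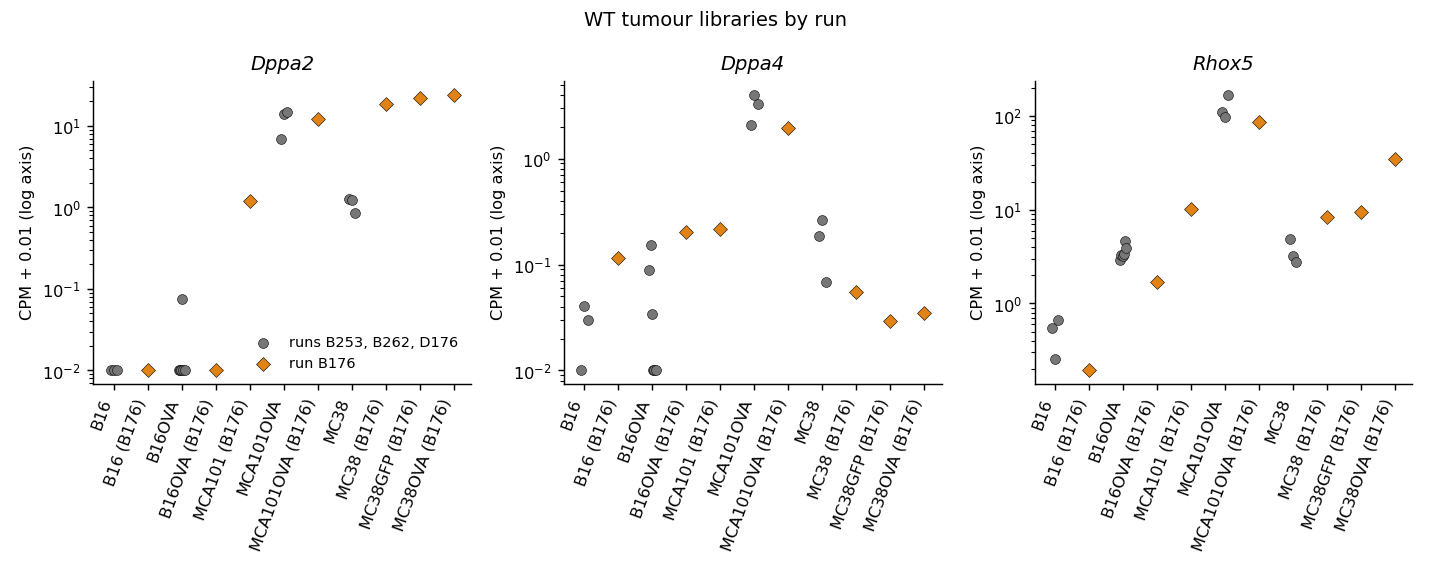
Dppa2, Dppa4 and Rhox5 in each WT tumour library, as CPM plus 0.01 on log axes; grey circles are the WT libraries of runs B253, B262 and D176 and orange diamonds the single libraries of run B176. Dppa2 in the 3 MC38 libraries of run B176 lies between 18.8 and 24.1 CPM, far above the MC38 libraries of run D176.

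The 7 untreated libraries of run B176 entered no test, and show that lines of the same name differed between runs. Dppa2 was at 18.8 CPM in MC38, 21.8 in MC38-GFP and 24.1 in MC38-OVA of run B176, as their titles name them, against 0.847 to 1.27 CPM in the 3 MC38 WT libraries of run D176. For MC38 itself the ratio of summed counts was 16.9 (exact 95% interval 13.8 to 20.8). Dppa4 had 2, 1 and 1 counts (0.0454, 0.0190 and 0.0249 CPM) in those 3 libraries, and for MC38 its ratio of 0.284 has an interval that includes 1 (0.0316 to 1.21). These 3 libraries held the highest Dppa2 levels of all 105. Rhox5 was at 8.40, 9.35 and 34.5 CPM. Other genes differed as well: Krt8, at 242 to 511 CPM in the MC38 WT libraries of run D176, was at 0.0681, 0.0570 and 1.77 CPM in these 3. The summed level of 7 fibroblast markers was 162 to 281 CPM in the former and 197, 532 and 3261 CPM in the latter. Its members differed in direction: Dcn had 3 counts in all over the former and was at 47.1, 63.2 and 226 CPM in the latter, while Pdgfrb had a mean of 51.4 CPM in the former and was at 10.4, 11.8 and 44.2 CPM in the latter. The part of these differences in the Dppa2 values was not tested, and with 1 library each there is no replicate check.

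In run B176 the fibrosarcoma line was also sequenced without OVA. Dppa2 was at 1.20 CPM in MCA101 and 12.2 in MCA101OVA, Dppa4 at 0.206 and 1.94, and Rhox5 at 10.3 and 87.0. The ratios of summed counts were 10.2 (exact 95% interval 7.90 to 13.3), 9.40 (5.07 to 19.03) and 8.45 (7.74 to 9.23), with intervals that overlap. B16 and B16OVA of that run held 0 counts of Dppa2 each, and 0.183 and 1.69 CPM of Rhox5. MCA101OVA of run B176 lay within the range of the 3 MCA101OVA WT libraries for Dppa2 (12.2 CPM) and below it for Dppa4 (1.94) and Rhox5 (87.0).

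**Figure D4:**
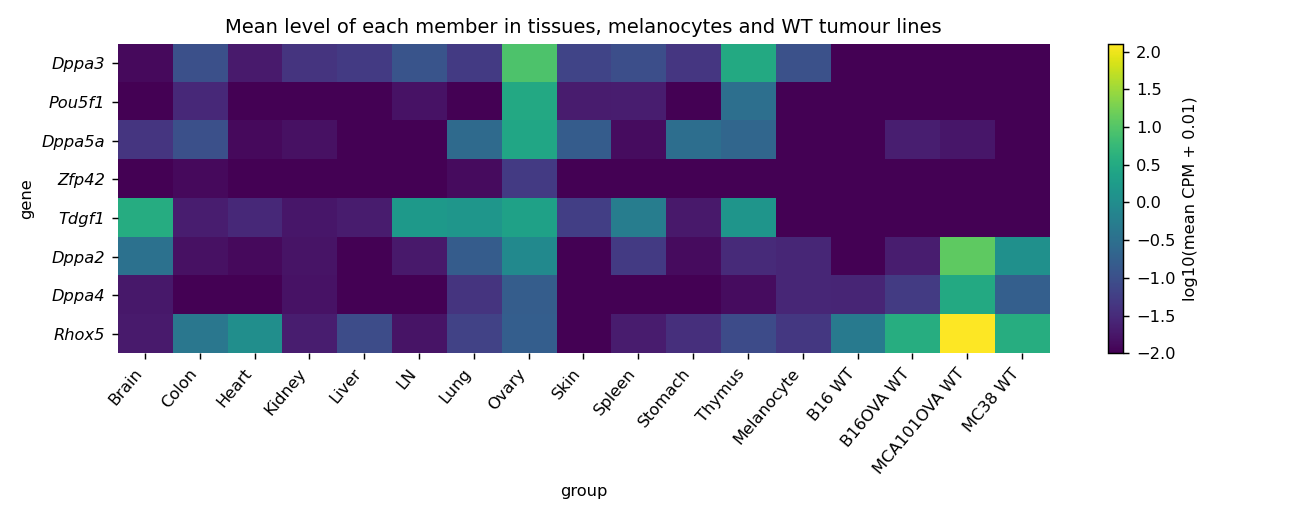
Mean level of each member (rows) in the 12 tissues, melanocytes and the 4 WT tumour groups (columns), as log10 of mean CPM plus 0.01. Dppa3, Pou5f1 and Dppa5a are brightest in ovary, Tdgf1 in brain, and Dppa2, Dppa4 and Rhox5 in MCA101OVA.

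In healthy tissues most members were found in the ovary. The markers of 10 of the 11 other tissues summed highest in their own tissue; those of lymph node were higher in spleen (1744 CPM) than in lymph node (1316 CPM). In bulk tissue fewer cells of a type and less RNA per cell cannot be told apart. By the rule used (edgeR adjusted p under 0.05, log2 fold of at least 2 over the mean of the other 11 tissues, and the highest mean CPM), 6 of 6 tested members were highest in 1 tissue, as were 59.3% of the 26242 genes tested. Dppa2, Dppa3, Dppa5a and Pou5f1 were highest in ovary (4.84% of genes), Tdgf1 in brain (12.2%) and Rhox5 in heart (4.06%). Dppa3 was at 2.63, 12.2, 7.33 and 13.3 CPM in the 4 ovaries and Pou5f1 at 0.854, 3.96, 2.56 and 4.42 CPM. Their log2 folds in ovary were 6.80 (SE 0.21) and 8.80 (SE 0.35; edgeR, adjusted p = 2.84e-26 and 4.23e-15). Pou5f1 had 0 counts in brain, heart, kidney, liver, lung and stomach, so its fitted fold is no bound. Dppa5a was at 1.03, 3.57, 2.10 and 3.92 CPM (log2 fold 6.38, SE 0.29; edgeR, adjusted p = 4.13e-19) and Dppa2 at 0.307, 1.05, 0.737 and 1.41 CPM (log2 fold 5.65, SE 0.36; edgeR, adjusted p = 3.86e-15). Zfp42 and Dppa4 did not pass the filter in tissues. Zfp42 had 11 of its 13 tissue counts in ovary, and Dppa4 had 40 of 60.

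The ovary libraries were uneven, and 4 of the members had the order of the oocyte transcripts. The summed level of 20 oocyte markers (Zp2, Gdf9, Padi6 and others) was 155, 610, 399 and 665 CPM in ovary replicates 1 to 4, against group means of 3.14 to 21.98 CPM in all other tissues. All 20 were above 0 in ovary. Dppa3, Dppa5a, Pou5f1 and Dppa2 were lowest in replicate 1, then replicate 3, then 2, and highest in replicate 4, the order of the marker sum. Tdgf1 followed it except that replicate 2 (3.21 CPM) was above replicate 4 (3.10). The part of the oocyte content of each piece in these values was not tested.

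**Figure D5:**
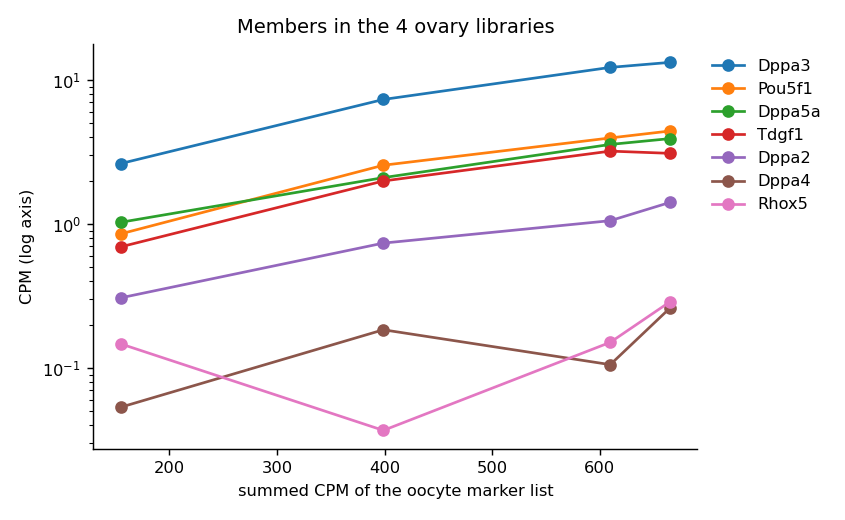
Level of 7 members (CPM, log axis) in the 4 ovary libraries against the summed CPM of the oocyte marker list in the same library; lines join libraries in order of the marker sum and carry no fit. Dppa3, Pou5f1, Dppa5a and Dppa2 rise along the axis from 155 to 665 CPM, while Dppa4 and Rhox5 do not keep the order.

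Thymus was the other tissue with Dppa3 and Pou5f1. Dppa3 was at 3.67, 2.27, 3.87 and 2.49 CPM there and Pou5f1 at 0.287, 0.305, 0.345 and 0.291. Against the mean fitted log level of the other 11 tissues the log2 folds were 5.23 (SE 0.22) and 5.40 (SE 0.44; edgeR, adjusted p = 6.39e-23 and 4.89e-10), and Dppa5a was higher by 2.52 (SE 0.38; edgeR, adjusted p = 4.19e-07). The oocyte marker sum in thymus was 20.9 to 23.5 CPM, with all 20 markers above 0. For Dppa3 the next tissue mean was 0.105 ± 0.0434 CPM in lymph node (SD, n = 4), and for Pou5f1 0.0201 ± 0.0192 in colon. The lowest ovary library and the thymus libraries overlapped for Dppa3 but not for Pou5f1.

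Tdgf1, the Nodal co-receptor, was above the mean fitted log level of the others in 6 tissues. Tissues near 0 lower that mean, so a fold over it is not a fold over the mean CPM of the others. It was at 4.17, 3.09, 1.91 and 4.46 CPM in brain, 0.694 to 3.21 in ovary, 1.34 to 1.99 in lymph node, 1.01 to 1.79 in lung, 0.957 to 1.68 in thymus and 0.373 to 0.672 in spleen. Neighbours in this order overlap from brain down to thymus; the spleen libraries lie below those of thymus. The log2 fold in brain was 4.72 (SE 0.26; edgeR, adjusted p = 3.41e-19), and those in ovary, lymph node, lung, thymus and spleen, from 3.71 to 1.71, were also called. The other 6 tissues held 0 to 0.112 CPM. The summed level of 5 leukocyte markers was 6844 CPM in lymph node, 8291 in spleen, 3625 in thymus, 1326 in lung, 396 in ovary and 11.1 in brain, and their part in the Tdgf1 levels was not tested.

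Rhox5 was the one member whose healthy maximum was in heart, at 1.52, 0.929, 0.631 and 1.09 CPM (log2 fold 6.08, SE 0.30; edgeR, adjusted p = 1.85e-19). Colon followed with 0.280 to 0.536 CPM, below every heart library (log2 fold 3.65, SE 0.34; edgeR, adjusted p = 1.24e-11). In skin Rhox5 had 0 counts in all 4 libraries. Dppa2 outside the ovary was found in brain, at 0.253 to 0.435 CPM (log2 fold 4.53, SE 0.39; edgeR, adjusted p = 2.45e-12), and in lung at 0.0486 to 0.260 CPM. Dppa5a was at 0.139 to 0.582 CPM in stomach and 0.168 to 0.353 in lung. Set beside the tissues, untreated MCA101OVA held 118 times the summed Rhox5 level of heart (exact 95% interval 107 to 131), 12.96 times the Dppa2 level of ovary (11.3 to 14.97) and 20.01 times the Dppa4 level of ovary (14.4 to 28.5). These 3 ratios cross sequencing runs and have no test.

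Across the 25 groups (12 line by condition groups, melanocytes and 12 tissues) the members fell into sets by likeness of log2 of mean CPM plus 0.1. The points share lines, libraries of 1 run and, for tissues, depth, and the correlations are descriptions. Pearson's r was 0.90 for Dppa2 with Dppa4, 0.90 for Dppa4 with Rhox5 and 0.78 for Dppa2 with Rhox5, and 0.95 for Dppa3 with Pou5f1. It was -0.07 for Dppa2 with Dppa3 and -0.52 for Rhox5 with Tdgf1. The genes most like Dppa2 were Nxf3 (r = 0.96), Dynap (0.93) and Odaph (0.92), and those most like Dppa4 were C78283 (0.93), Slc9b1 (0.90) and Platr5 (0.89). For Rhox5 they were C78283 (0.92), Lncenc1 (0.92) and Kank4os (0.91), all with their highest mean in MCA101OVA. Pou5f1 was most like Oas1h (1.00), Dcpp3 (1.00) and H1foo (0.99), and Dppa5a most like Ooep (0.92), Kpna7 (0.91) and Asz1 (0.90), genes highest in ovary. Dppa3 was most like Dcpp1, Dcpp2 and Umodl1 (0.97, 0.97 and 0.96), and Tdgf1 most like Kcnh4, Serpinb1b and Tcte1 (0.94, 0.92 and 0.92).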

How the data were processed

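Poly(A) RNA of 105 libraries was prepared with a stranded mRNA kit, per the labels' protocols. The authors trimmed reads with Trim Galore, checked them with FastQC, aligned them to mm10 with STAR and counted them per gene with HTSeq, per the submitters' processing notes, and deposited 1 table of raw counts; the sources used here give no version, strand setting or handling of reads with several matches. Of 53379 gene identifiers, 53274 had a symbol. Of 154 pairs of libraries within groups, 0 were identical. CPM (counts per 1e6 library counts) and RPKM (CPM per kilobase of merged exons) were computed here from the deposited counts.

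Tests used edgeR 4.0.16 quasi-likelihood fits (R 4.3.3, limma 3.58.1) with TMM scaling, the filterByExpr filter by group and Benjamini-Hochberg adjustment over all genes tested, at 0.05. The 45 libraries of the WT, Ctrl and KO groups were fitted together with run as a term (16809 genes, 31 residual degrees of freedom). WT groups were compared within run D176 with melanocytes (16020 genes, 8 degrees of freedom) and within runs B253 and B262 (14699 genes, 5). The 48 tissue libraries were fitted apart (26242 genes, 35). The fit functions were tested on simulated counts. Ratios of summed counts carry exact conditional binomial intervals at 95%, and floors are 3 counts over a group; PCR reads without molecular identifiers are not independent molecules, so both cover counting error only. Named genes were the members, the called genes of the lists and neighbours, and for each member the 3 genes of highest Pearson r over 25 group means with a highest mean of at least 1 CPM. Predicted models (Gm numbers and names ending in Rik) were left out of the neighbours and of the genes ranked by r. Alternatives were RLE scaling, no filter, a stricter filter, no run term, a replicate block, DESeq2 1.42.0, other choices of control, and leaving out libraries. The libraries of run B176 entered no test. The members and lists were chosen with earlier results of these data known.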

Additional observations from a re-analysis of the deposited data

Results flagged for a closer look

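The libraries of run B176 entered no comparison of groups, and in MC38 of that run 2 members stood above the range of the MC38 WT libraries of run D176. Dppa2 was at 18.8 CPM, against a highest value of 1.27 CPM in the latter, and Rhox5 was at 8.40 CPM, against a highest value of 4.84 CPM. Each value rests on 1 library and has no replicate check. Of 26 sets of a member in a group of 4 to 10 libraries, 0 held a library that stood apart from the rest by Dixon's criterion.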

How the results depend on the processing

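With any 1 library left out, the number of members called in KO against Ctrl was 2 to 3 for B16, 1 to 2 for B16OVA, 0 to 0 for MCA101OVA and 0 to 2 for MC38. The difference of the KO effect in MCA101OVA from that in B16OVA gave 0 to 1. Without the filter on low counts, 2 members were called in B16OVA, 2 in MC38, 1 in the difference between B16 and B16OVA, 1 in that between MCA101OVA and B16OVA, 2 between B16OVA WT and MC38 WT and 1 between B16OVA WT and B16 WT. The stricter filter gave 1 for the difference between MCA101OVA and B16OVA, 1 for MC38 WT against melanocytes and 0 for B16OVA WT against MC38 WT, fewer genes being tested. RLE scaling gave 1 for the difference between MCA101OVA and B16OVA. DESeq2 gave 1 there and 2 in MC38. The 2 groups alone in the fit gave 1 in B16 and 0 in MC38. WT in place of Ctrl gave 2 in MC38, as did Ctrl and WT together (2), and it turned the log2 fold of Dppa2 in MCA101OVA to -0.0807. Without the 7 libraries with the length trend, 2 were called in B16OVA and 2 in MC38. Except where a sentence gives one, the cause was not tested. Dppa4 in B16OVA and Rhox5 in B16 were called under every alternative run on these 2 results.

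The labels give no replicate numbers shared across groups. In the fit with a replicate block by library set, 2 members were called in MC38 (Rhox5 with edgeR adjusted p = 0.0412) and 1 in the difference between MCA101OVA and B16OVA. Libraries of 1 set deviated together with a correlation over 0.1 in 9 of 9 pairs in B16, 8 of 9 in B16OVA and 9 of 9 in MCA101OVA.

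Over all genes, edgeR called 116 genes for B16, 177 for B16OVA, 58 for MCA101OVA and 78 for MC38. These became 22, 105, 1 and 2 with the 2 groups alone. Without the filter they were 296 in B16OVA, 144 in MCA101OVA and 145 in MC38. Ctrl and WT together gave 117 in MCA101OVA and 191 in MC38, WT in place of Ctrl 131 in MC38, and the replicate block 125 in MC38. Without the libraries with the length trend, 14 were called in MCA101OVA. Depth limits what can be said of Dppa2 in the melanoma lines, with 21 counts in B16 KO and 16 in B16OVA KO, and of Dppa4 in B16, with 1 count in Ctrl, and 5 members could not be tested in the tumour lines.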
